A study of Drosophila melanogaster with 14 samples.

Results

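3LHet is a scaffold of the dm3 genome assembly of Drosophila melanogaster that holds heterochromatic sequence of the left arm of chromosome 3. All 1-kb bins named 3LHet were taken, 2556 of the 168744 bins of each file, and together they span positions 1 to 2555491. The bins were joined into 256 windows of 10 kb, numbered as steps from the first base of the scaffold, and into 26 sections of up to 100 kb. The study compared ovaries with and without a knockdown of Cutoff (gene cuff), and 8 of its 14 samples had files. Ovaries came from flies aged 3 to 14 days, and all flies carried the germline driver P{GAL4::VP16-nos.UTR}CG6325MVD1 (nos-GAL4). shCuff flies carried the short hairpin line TRiP.GL00054 at attP2, and shWhite flies the line TRiP.HMS00017 at attP2. The control of nuclear run-on was w[1118] with the driver and no hairpin. There were 2 libraries per genotype of total RNA depleted of ribosomal RNA, 1 per genotype of poly(A) RNA, and 1 run-on library each of shCuff and of its control. The labels describe the second total RNA pair as controls of chromatin libraries. The driver is active in the germline, and ovaries also hold somatic follicle cells, so lower RNA per cell and fewer germline cells cannot be told apart. The files name no genes, so neither the level of cuff nor markers of the tissue were checked.

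Heterochromatin is the compact, repeat-rich part of the genome, much of it around the centromeres. In the fly germline, stretches of it that are full of transposon remnants act as piRNA clusters, whose long transcripts from both strands are cut into the small RNAs that guide PIWI proteins to transposons. Cutoff works there with Rhino and Deadlock. Heterochromatin also holds ordinary genes with their own promoters. Nuclear run-on labels RNA at engaged polymerases and so reads transcription, total RNA reads what accumulates, and poly(A) RNA reads its polyadenylated part.

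The libraries held 2950394 to 10932667 reads, and 3LHet took 0.137% to 0.535% of them. Levels are given as RPM, reads per 1000000 reads of the library, and intervals are 95% exact (Clopper-Pearson) intervals of a ratio of RPM that cover counting error only. Reads lay in 616 bins of 3LHet in shWhite replicate 1 and in 209 in shCuff replicate 1, while genome-wide 22.0% and 21.7% of bins had any read. Poly(A) reads lay in 290 and 161 bins. Run-on reads lay in 937 bins in the driver control and in 541 in shCuff, against 42.2% and 41.8% of bins genome-wide. In the second total RNA pair the number was 471 and 114, and the genome-wide share was also lower in shCuff, at 27.0% and 20.6%. Bins with as few as 1 to 3 reads made up 16.7% of the read-bearing bins of 3LHet in shCuff replicate 2, but 79.8% in its shWhite partner and 77.0% in shCuff replicate 1. This holds for the whole library, with 8.37% genome-wide in shCuff replicate 2 and 35.7% in shWhite replicate 2. In shCuff replicate 2, 185 of the 256 windows held 0 reads. The part of this scarcity of low counts in the ratios of the replicate 2 pair was not tested.

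The summed level of the scaffold was close in both genotypes. In replicate 1 of total RNA it was 1475 RPM in shWhite and 1374 RPM in shCuff. Replicate 2 had 4627 and 5349 RPM. In poly(A) RNA it was 1652 and 1416 RPM, and in run-on 4250 RPM in the driver control and 3885 in shCuff. These sums mostly show 1 bin, from 2398001 to 2399000, which is abundant in all 8 libraries. It held 2616 and 2487 reads in shWhite and shCuff of replicate 1, 19268 and 35096 in those of replicate 2, 7314 and 9397 in poly(A) RNA and 2111 and 2113 in run-on. That is 52.8% to 89.3% of the reads of 3LHet in the RNA libraries and 20.4% and 21.7% in run-on. The ratio of shCuff to control of this bin was 1.08 (1.02 to 1.14) and 1.41 (1.39 to 1.44) in the total RNA pairs, 0.983 (0.954 to 1.01) in poly(A) RNA and 0.972 (0.914 to 1.03) in run-on.

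Without that bin, 3LHet was lower in shCuff in each of the 4 pairs. The level was 695.7 RPM in shWhite and 531.1 in shCuff in the replicate 1 pair, a ratio of 0.763 (0.716 to 0.814). In the replicate 2 pair it was 1240.0 and 570.2 RPM, a ratio of 0.460 (0.442 to 0.478). In poly(A) RNA it was 777.6 and 556.7 RPM, a ratio of 0.716 (0.691 to 0.741), and in run-on 3384 and 3044 RPM, a ratio of 0.899 (0.872 to 0.928). By edgeR's quasi-likelihood test over the 4 total RNA libraries, the scaffold had a log2 change of 0.054 (SE 0.37, adjusted p = 0.961). Without the bin, an alternative chosen after seeing the data, it was -0.76 (SE 0.32, edgeR adjusted p = 0.509), so neither passed 0.05.

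**Figure D1:**
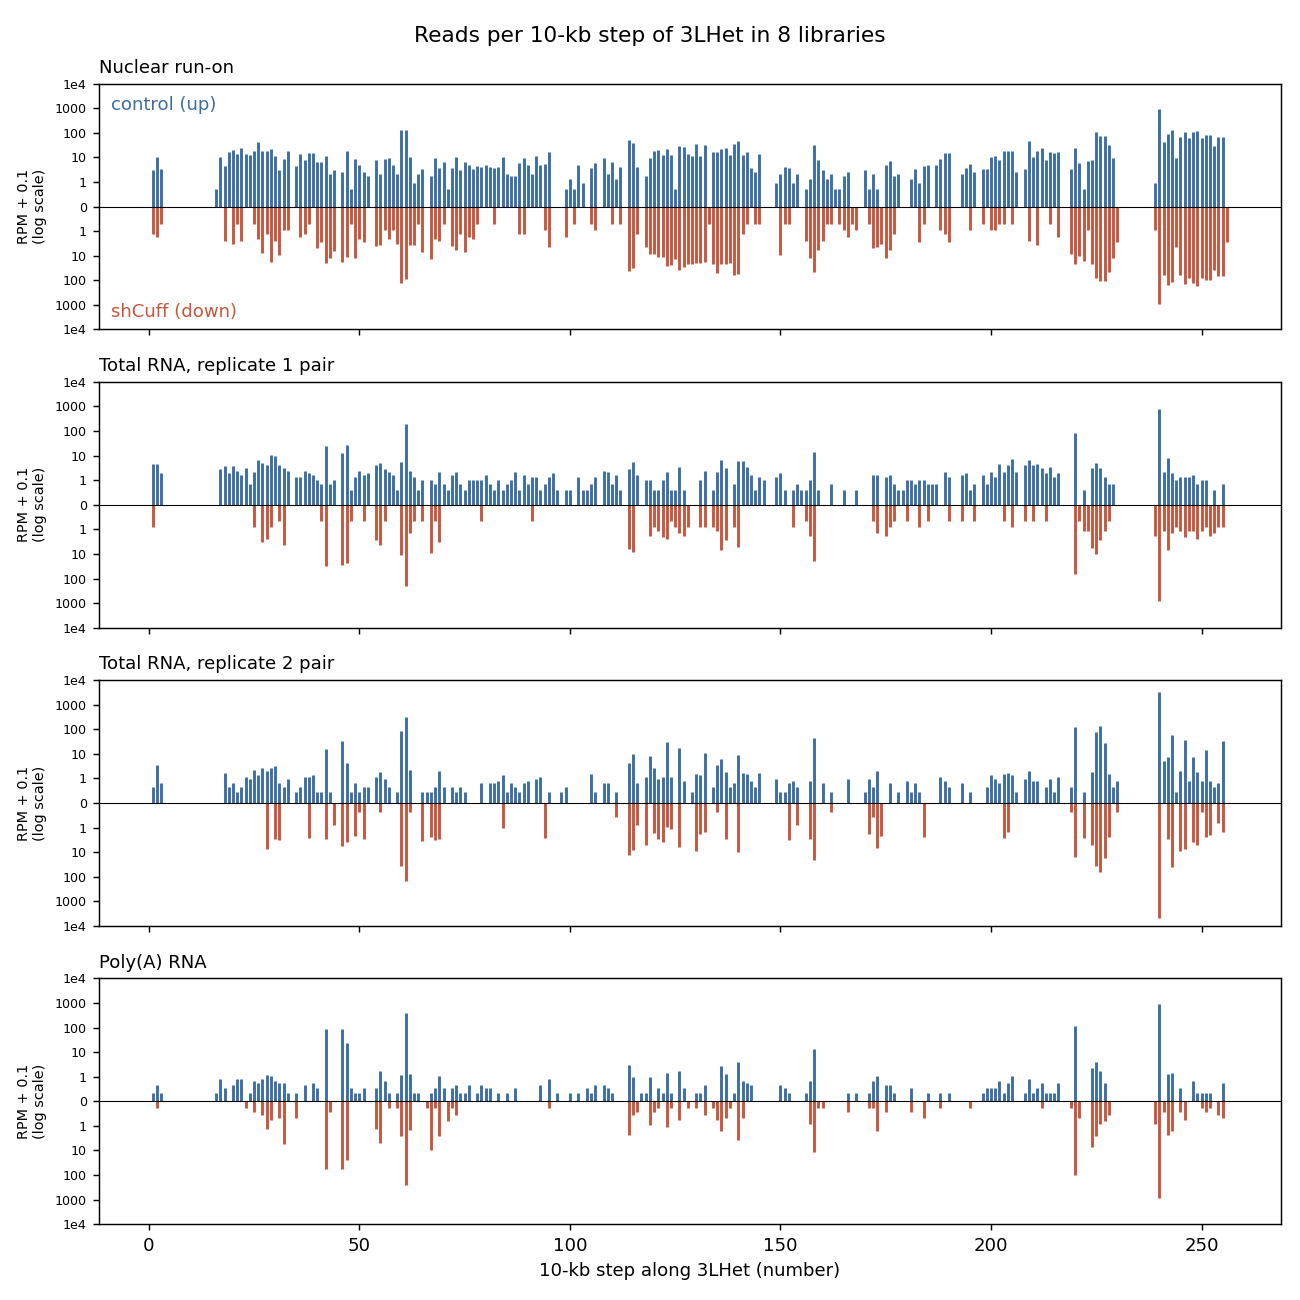
Reads per 10-kb step of 3LHet, with the control drawn upward and shCuff downward from 0 as RPM + 0.1 on a log scale. Of the 256 steps, 51 held 0 run-on reads in the control and 94 in shCuff. The step of the bin with most reads stands highest in all 8 libraries.

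Along the scaffold, sections with run-on near the control level in shCuff alternated with sections where it was lower. In run-on, 14 of the 26 sections were at least 2-fold lower in shCuff, against 5.33% of the 1502 sections of all sequences with at least 20 reads in the pair, and 0 were at least 2-fold higher, against 14%. The lower sections were those from 1 to 400000, from 700001 to 1100000, from 1400001 to 1500000, from 1600001 to 1700000 and from 1800001 to 2200000. Their run-on ratios ran from 0.0326 to 0.481 with a median of 0.169, and those of the other 12 sections from 0.706 to 1.73 with a median of 1.23. No section lay between 0.481 and 0.706.

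Total RNA of the replicate 1 pair, from other libraries and another library set, followed the same division. All 14 sections with low run-on had less total RNA in shCuff, with a median ratio of 0.0476, and 5 of them held 0 reads in shCuff. With at least 20 reads required in the pair, 12 of 25 sections were at least 2-fold lower, against 3.73% of 1259 sections of all sequences, and these 12 were all among the sections with low run-on. At least 2-fold higher was 1 of 25, against 7.94%. The other 12 sections had total RNA ratios from 0.613 to 2.85 with a median of 1.11. Outside 3LHet, 66 sections were at least 2-fold lower in run-on, and of the 46 with enough total RNA reads 19 (41.3%) were at least 2-fold lower in the replicate 1 pair, against 12 of 13 in 3LHet. This difference was not tested. Over the 26 sections the ratios of run-on and of total RNA replicate 1 had a Spearman rho of 0.74, as a description of sections that share their libraries.

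The replicate 2 pair divided the sections less clearly. All 14 sections with low run-on were below the control there too, with a median ratio of 0.118 and a highest of 0.981. That median rests on few reads, as shWhite held from 7 to 712 reads per section and 6 sections held 0 shCuff reads. The other 12 sections had a median of 0.515, and 9 of those 12 were below 1. With at least 20 reads, 11 of 21 sections were at least 2-fold lower, against 5.2% of 1345 sections of all sequences, and 1 was higher, against 23%. Of those 11, 6 lay outside the sections with low run-on, so such loss was not particular to low run-on in this pair. In poly(A) RNA 4 of 16 sections were at least 2-fold lower, against 2.16% of 1252, and 2 were higher, against 9.5%. The median poly(A) ratio was 0.179 in the sections with low run-on and 0.784 in the others. The median of 0.179 also rests on few reads, as shWhite held from 2 to 951 poly(A) reads per section and 4 sections held 0 in shCuff. The section from 300001 to 400000 was an exception, with 19 poly(A) reads in shWhite and 67 in shCuff.

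**Figure D2:**
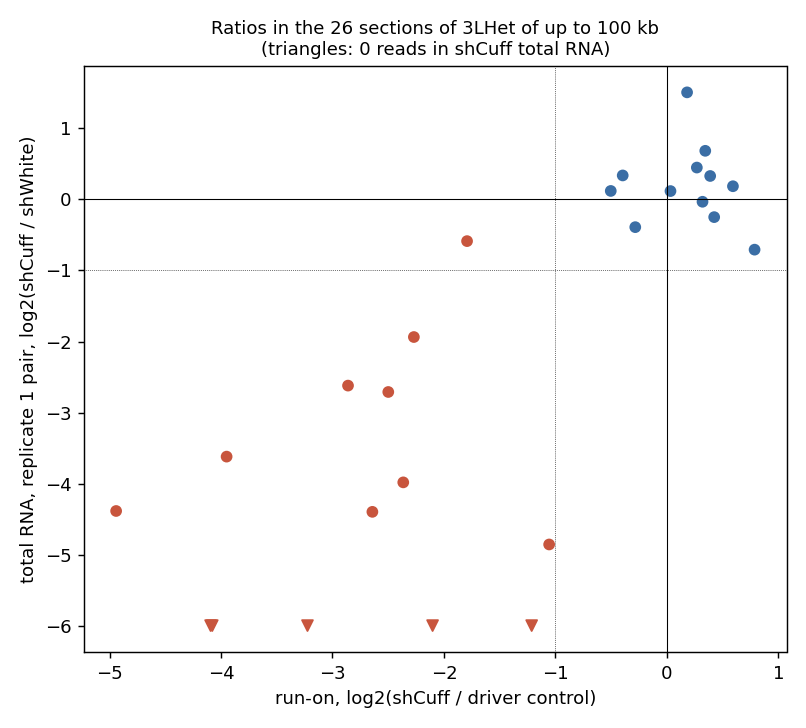
Log2 ratio of shCuff to control in run-on (horizontal) and in total RNA of the replicate 1 pair (vertical) for the 26 sections of 3LHet. The 14 sections at least 2-fold lower in run-on (red) all lie below 0 in total RNA, 5 of them with 0 shCuff reads (triangles, of which a pair overlaps), while the other 12 (blue) lie between ratios of 0.613 and 2.85.

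Summed over the 14 sections with low run-on, 1400 kb in all, run-on went from 932.1 RPM in the driver control to 162.4 in shCuff. Total RNA of replicate 1 was 289.2 and 84.1 RPM, a ratio of 0.291 (0.252 to 0.334), and that of replicate 2 was 188.3 and 41.4 RPM, a ratio of 0.220 (0.193 to 0.250). A large part of that RNA came from the bin from 2190001 to 2191000, described further on. Without it, total RNA of the replicate 1 pair was 687 reads in shWhite and 51 in shCuff, a ratio of 0.0845 (0.0623 to 0.112). In the replicate 2 pair it was 379 and 242 reads, a ratio of 0.495 (0.419 to 0.583). Poly(A) RNA was 1138 and 1171 reads with the bin, a ratio of 0.787 (0.725 to 0.855). Without it, poly(A) RNA was 200 and 120 reads, a ratio of 0.459 (0.363 to 0.579). Over the other 12 sections the ratio was 1.12 (1.09 to 1.16) in run-on and 1.09 (1.04 to 1.14) in total RNA replicate 1. It was 1.20 (1.18 to 1.21) in replicate 2 and 0.864 (0.843 to 0.885) in poly(A) RNA. The bin at 2398001 lies among them, with 19268 of their 25251 shWhite reads and 35096 of their 38980 shCuff reads in replicate 2. Their median section ratio in that pair was 0.515, so replicate 2 RNA was also lower in sections with kept run-on.

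At 10-kb resolution, 119 of the 256 windows held at least 20 run-on reads over both libraries. Of these, 50 were at least 2-fold lower in shCuff, against 10.4% of 8144 windows of all sequences, and 14 were at least 2-fold higher, against 15.5%. In the 50 lower windows the driver control held from 16 to 108 run-on reads with a median of 33, and shCuff from 0 to 21 with a median of 2. The last window inside the 2-fold limit, from 2430001 to 2440000, went from 23 reads to 11, and the first outside it, from 530001 to 540000, from 18 to 10. Bins with run-on reads numbered 307 of 500 in the control and 63 in shCuff, which follows in part from choosing these windows by the same reads.

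The 50 windows were chosen by run-on, and the RNA libraries did not enter that choice. Their total RNA was 449 reads in shWhite replicate 1 and 47 in shCuff replicate 1, or 133.7 and 15.9 RPM, a ratio of 0.119 (0.0863 to 0.161). Of the 49 windows with any read in that pair, 47 were lower in shCuff and 35 held 0 shCuff reads. Over all sequences, 849 windows were at least 2-fold lower in run-on. Their run-on was less low, at a summed ratio of 0.402 (0.399 to 0.406) against 0.0977 (0.0834 to 0.114) in the 50 windows. Of the 808 with reads in the replicate 1 pair, 524 were lower there and 180 held 0 shCuff reads, at a summed ratio of 0.871 (0.865 to 0.877). In the replicate 2 pair the 50 windows of 3LHet held 293 and 164 reads, a ratio of 0.434 (0.356 to 0.527). There 44 of 48 windows were lower, and 39 held 0 shCuff reads, in a library scarce in low counts. Over all sequences, 484 of 814 such windows were lower in that pair and 174 held 0 shCuff reads. The 164 shCuff reads lay in 12 bins, and without the bin of 33 reads from 272001 to 273000 the ratio was 0.347 (0.281 to 0.428).

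Poly(A) RNA from the 50 windows was scarce in the control: 145 reads, or 17.3 RPM against 133.7 RPM in total RNA of the same set. Over the 55 windows with run-on ratios within 2-fold, the control levels were 1531 RPM in poly(A) RNA and 1223 RPM in total RNA, most of it from a few abundant windows. The median window of those 55 held 2 poly(A) and 4 total RNA reads in the control, and the median of the 50 held 2.5 and 7.5, so a typical window of either group had little poly(A) RNA. In shCuff the 50 windows held 105 poly(A) reads, or 9.60 RPM, a ratio of 0.554 (0.427 to 0.717). The bin from 311001 to 312000 went from 1 poly(A) read to 47, and without it the ratio was 0.308 (0.223 to 0.421), from 144 and 58 reads. The same bin went from 0 to 12 reads in the replicate 1 pair, held 0 reads in both replicate 2 libraries and had 2 run-on reads in each library.

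**Figure D3:**
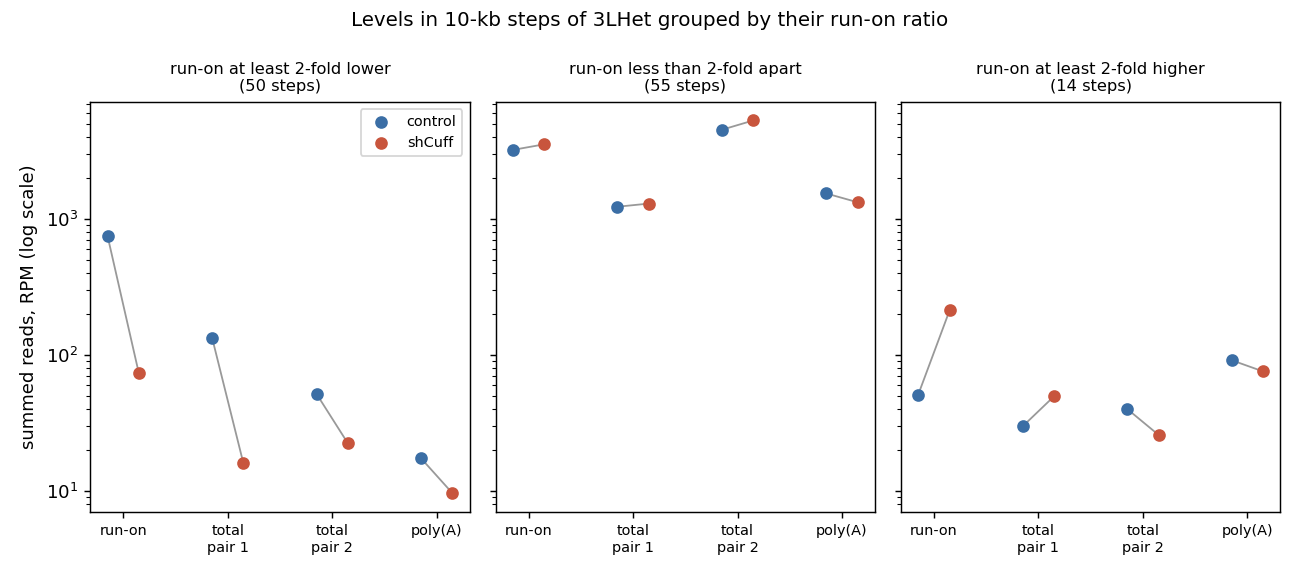
Summed RPM (log scale) of 10-kb steps of 3LHet in the 4 pairs, for steps grouped by their run-on ratio; each dot is 1 library. In the 50 steps with lower run-on, total RNA of the replicate 1 pair was 133.7 RPM in shWhite and 15.9 in shCuff, while the 55 steps within 2-fold had 1223 and 1291 RPM.

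The lower windows lay in stretches. Joined where at most 5 windows separated them, 46 of the 50 formed 6 stretches, and 4 stood alone. The longest stretch, from 160001 to 410000, held 19 of them among 22 windows with at least 20 run-on reads. It went from 834 run-on reads in the driver control to 154 in shCuff, a ratio of 0.179 (0.150 to 0.213). Its total RNA was 251 reads in shWhite and 35 in shCuff in the replicate 1 pair, a ratio of 0.159 (0.108 to 0.227), spread over 124 and 14 bins. In the replicate 2 pair it was 137 and 117 reads over 72 and 5 bins, and in poly(A) RNA 80 and 91 reads over 54 and 16 bins.

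A second long stretch, from 1990001 to 2160000, had 13 lower windows out of 13 with enough reads. Run-on went from 595 reads to 27, a ratio of 0.0441 (0.0288 to 0.0648). Total RNA went from 178 to 6 reads in replicate 1, a ratio of 0.0384 (0.0139 to 0.0852), and from 78 to 28 in replicate 2, a ratio of 0.278 (0.174 to 0.433). Poly(A) RNA went from 43 reads to 1, a ratio of 0.0178 (0.000440 to 0.105). This stretch was thus low in shCuff in all 4 pairs.

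The short stretch from 1400001 to 1450000 went from 118 run-on reads to 6, a ratio of 0.0494 (0.0178 to 0.111). Its total RNA went from 41 reads to 0 and from 32 to 0, at least 12.0-fold and 13.8-fold lower when 3 reads are set for the shCuff library. It begins where a block with kept run-on ends, since the window just before it, from 1390001 to 1400000, had 115 run-on reads in the control and 137 in shCuff. The stretch from 830001 to 950000 went from 186 run-on reads to 19 and from 36 total RNA reads to 1 in the replicate 1 pair, but it held 33 and 26 reads in replicate 2, a ratio of 0.610 (0.351 to 1.05). The stretch from 1870001 to 1900000 went from 93 run-on reads to 12, with 11 and 1 total RNA reads in replicate 1 and 12 and 0 in replicate 2. The stretch from 550001 to 680000 held only 4 lower windows among 8 with enough reads and had a run-on ratio of 0.778 (0.699 to 0.866), as it includes the abundant windows at 590001 and 600001.

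Single windows are given next, 5 of them picked by their low run-on ratio, so their run-on reads follow in part from that choice. The window from 250001 to 260000 had 104 run-on reads in the driver control and 5 in shCuff, 23 and 0 total RNA reads in replicate 1, 7 and 0 in replicate 2 and 4 and 0 poly(A) reads. The window from 2080001 to 2090000 had 108 and 6 run-on reads, 21 and 0 and 11 and 0 total RNA reads, and 6 and 0 poly(A) reads. The window from 2110001 to 2120000 had 60 run-on reads in the control and 0 in shCuff, at least 20.6-fold lower. Its total RNA was 10 and 0 reads in replicate 1, and both replicate 2 libraries held 0. The windows from 210001 and from 190001, with 57 and 6 and with 49 and 8 run-on reads, complete the 5 lowest run-on ratios among windows with at least 50 reads, and shCuff held 0 RNA reads in both. The window from 280001 to 290000 kept its run-on, with 53 and 45 reads, but its total RNA went from 34 to 2 and from 14 to 0 reads. It had the lowest edgeR p of the windows of 3LHet, with a log2 change of -4.60 (SE 1.55, edgeR adjusted p = 0.509).

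**Figure D4:**
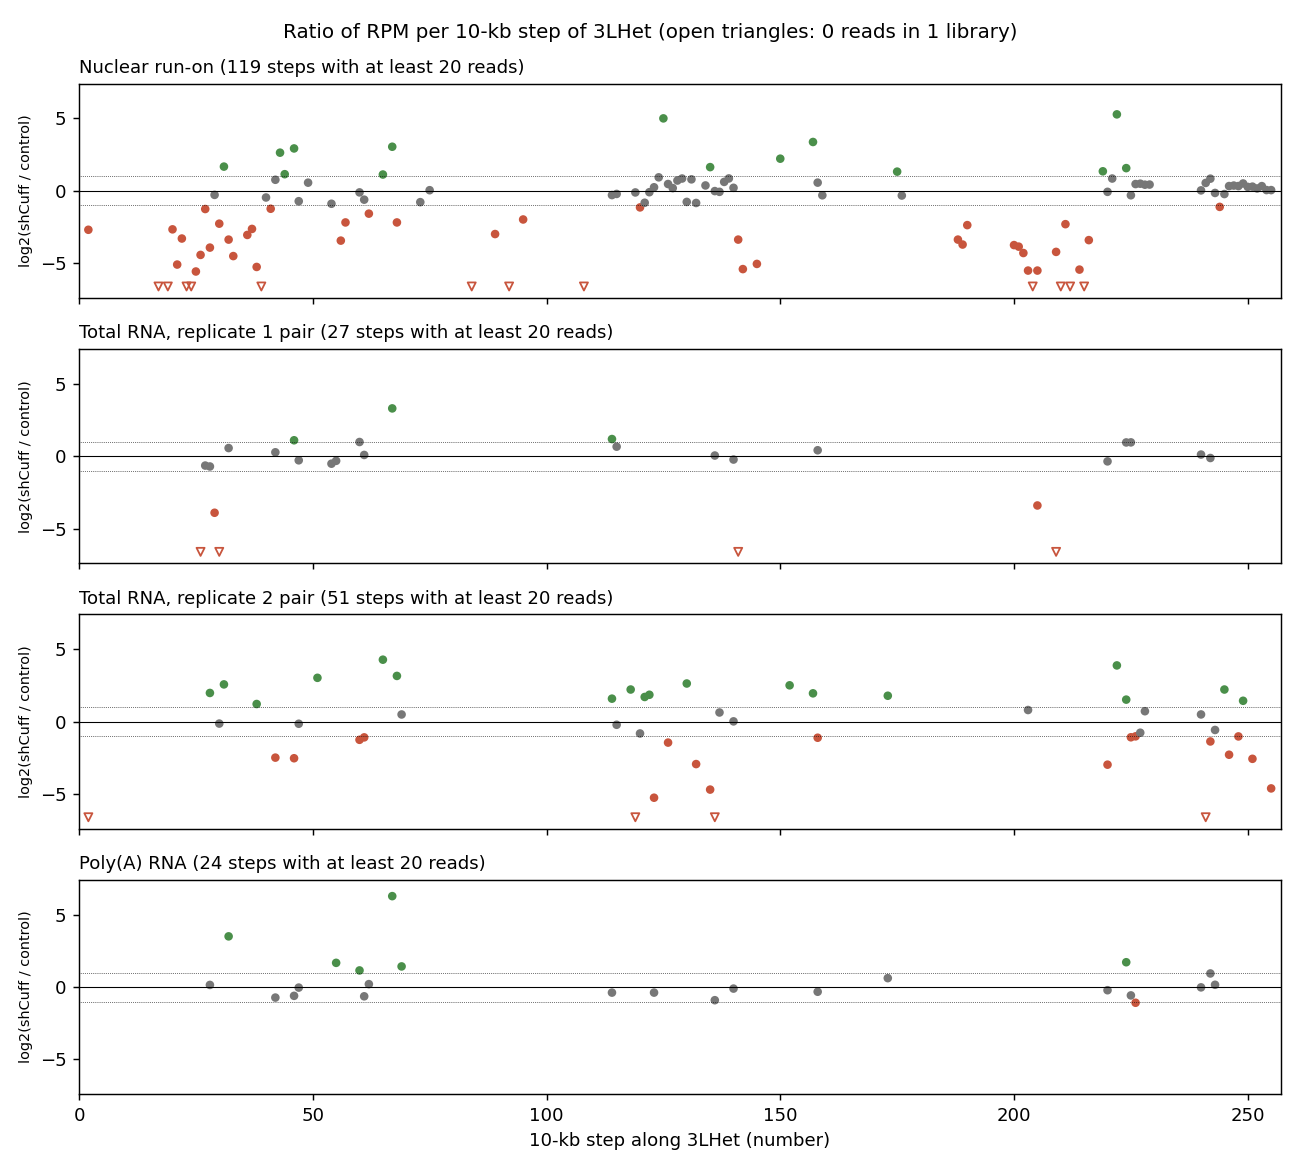
Log2 ratio of shCuff to control per 10-kb step of 3LHet in the 4 pairs, for steps with at least 20 reads; dotted lines mark 2-fold, red and green points lie beyond it, and open triangles at the edge have 0 reads in 1 library. Run-on shows 50 lower steps in stretches and a dense run of steps within 2-fold near the end of the scaffold, while the total RNA and poly(A) panels have only 24 to 51 steps.

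Blocks with kept transcription lay between these stretches. From 1100001 to 1400000 the 3 sections had run-on ratios of 0.760, 1.21 and 1.34. The last 4 sections, from 2200001 to the end, had 1.27, 1.02, 1.25 and 1.13. In the control, the section from 2400001 to 2500000 had 791.4 RPM in run-on but 19.1 and 118.3 RPM in total RNA of shWhite replicates 1 and 2 and 3.59 RPM in poly(A) RNA. The section from 2500001 to the end had 326.4 RPM in run-on, 1.79 and 48.5 in total RNA and 0.717 in poly(A) RNA. The sections from 2400001 to the end were thus among the strongest of 3LHet in run-on while holding little poly(A) RNA. Both total RNA controls differed there by more than in the whole scaffold, and so did the pairs: the ratio of the last section was 2.85 (1.04 to 8.95) in replicate 1 and 0.126 (0.0900 to 0.174) in replicate 2.

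Of the windows with the highest and lowest ratios in the replicate 2 pair, some differed from the other pairs and some did not. The window from 1220001 to 1230000 had 177 reads in shWhite and 6 in shCuff of replicate 2, a ratio of 0.0263 (0.00951 to 0.0583), but 7 and 7 in replicate 1 and 54 and 66 in run-on. The window from 2540001 had 189 and 10 reads in replicate 2, and 162 and 173 in run-on. Its bin from 2543001 held 177 and 10 of those replicate 2 reads. In that bin run-on was lower too, with 55 and 19 reads, a ratio of 0.335 (0.188 to 0.574). In the other direction, the window from 1290001 had 8 and 64 reads in replicate 2, with 84 and 51 in run-on. The window from 270001, inside the longest stretch of low run-on, had 11 and 56 reads in replicate 2, but 13 and 7 in replicate 1 and 44 and 3 in run-on. Replicate 1 held 0 reads in both libraries in the window from 1290001 and 2 in each in that from 2540001, too few to compare. The window from 1310001 was lower in 3 pairs, with 59 and 10 reads in replicate 2, 8 and 2 in replicate 1 and 78 and 45 in run-on. That from 1130001 had 24 and 93 reads in replicate 2 and 9 and 18 in replicate 1, with 120 and 101 in run-on, and that from 1720001 had 11 and 49 in replicate 2 and 1 and 11 in run-on.

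Most poly(A) RNA came from a few windows apart from that of the bin at 2398001. The window from 600001 to 610000 held 660 and 617 total RNA reads in replicate 1, 1860 and 1131 in replicate 2, 3209 and 2688 poly(A) reads and 330 and 223 run-on reads. Its ratios were 1.06 (0.952 to 1.19), 0.471 (0.437 to 0.507), 0.641 (0.609 to 0.675) and 0.656 (0.551 to 0.780). The windows from 410001 and from 450001 had 752 and 728 poly(A) reads in shWhite and 593 and 624 in shCuff, ratios of 0.603 (0.541 to 0.673) and 0.656 (0.588 to 0.731). Their ratios in total RNA were 1.21 (0.883 to 1.65) and 2.15 (1.47 to 3.17) in replicate 1, but 0.179 (0.106 to 0.290) and 0.174 (0.121 to 0.245) in replicate 2, so the total RNA pairs lie on opposite sides of 1.

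The bin from 2190001 to 2191000, inside a section with low run-on, behaved otherwise than its surroundings. It held 284 and 197 reads in replicate 1, 692 and 62 in replicate 2, 938 and 1051 in poly(A) RNA and 54 and 38 in run-on. Its total RNA was lower in shCuff in both pairs, but its run-on ratio was 0.683 (0.439 to 1.05) and its poly(A) ratio 0.858 (0.785 to 0.937). It had the lowest p of the 68 bins of 3LHet tested by edgeR, with a log2 change of -2.07 (SE 0.67, edgeR adjusted p = 0.796).

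A few windows were higher in shCuff. The window from 660001 to 670000 went from 3 to 26 total RNA reads in replicate 1, from 1 to 17 in replicate 2, from 1 to 101 in poly(A) RNA and from 4 to 34 in run-on. It was higher in all 4 pairs, with a ratio of 8.25 (2.94 to 32.0) in run-on and 9.86 (3.02 to 50.9) in the replicate 1 pair, and edgeR's log2 change was 3.38 (SE 1.36, adjusted p = 0.509). The window from 2230001 to 2240000 went from 10 to 17 and from 10 to 37 total RNA reads, from 18 to 77 poly(A) reads and from 18 to 55 run-on reads. The window from 450001 went from 6 to 47 run-on reads, a ratio of 7.60 (3.24 to 21.8), and had the higher total RNA in replicate 1 and lower total RNA in replicate 2 given above. All its replicate 1 reads, 44 in shWhite and 83 in shCuff, lay in the bin from 459001. That bin had 3 run-on reads in the control and 0 in shCuff, so the higher run-on lay in other bins of the window. The window from 1340001 went from 39 to 125 run-on reads, a ratio of 3.11 (2.16 to 4.58), with 7 and 3 total RNA reads in replicate 1 and 20 and 1 in replicate 2. Poly(A) windows at least 2-fold higher numbered 6 of 24 in 3LHet, against 8.13% of 5127 windows of all sequences, and 1 was at least 2-fold lower, against 2.87%. The window from 310001 to 320000 had 4 and 59 poly(A) reads but 20 and 2 run-on reads, and 47 of the 59 lay in the bin from 311001.

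The test over the 4 total RNA libraries called no feature of 3LHet. Of its bins, 68 reached a mean of 1 RPKM over the 4 libraries, and edgeR called 0 higher and 0 lower at an adjusted p under 0.05, against 0.0767% and 0.0292% of the 27388 bins tested. At an unadjusted p under 0.05, 2 were higher (2.94%) and 5 lower (7.35%), against 2.04% and 2.58% of all bins tested. Among its 40 windows with a mean of at least 10 reads, edgeR called 0 higher and 0 lower, against 0.076% and 0.0152% of 6577. Without adjustment, 1 was higher (2.5%) and 2 lower (5%) at p under 0.05, against 7.34% and 1.95% of all windows tested. DESeq2 also called 0 bins and 0 windows. Most windows with low run-on could not enter this test, as their total RNA in the control had a median of 7.5 reads in shWhite replicate 1 and 5 in shWhite replicate 2. In single pairs, 6 of 27 windows of replicate 1 were at least 2-fold lower and 3 higher, against 2.63% and 11.1% of all windows with enough reads. In the replicate 2 pair 21 of 51 were lower and 18 higher, against 9.13% and 38.3%.

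Of 15 windows with at least 20 reads in each of the 4 pairs, 2 were below the control in all, from 460001 and from 2190001, and 1 above it, from 2230001. These shares are near those of all sequences, 13.9% below and 9.42% above of 4511 windows.

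The scaffolds 3RHet and 2RHet, of similar kind and length, had other run-on values. The summed run-on ratio was 2.80 (2.72 to 2.88) for 3RHet and 1.31 (1.28 to 1.34) for 2RHet, against 0.914 (0.889 to 0.940) for 3LHet. In 3RHet 26 of 112 windows were at least 2-fold lower and 59 higher, and in 2RHet 16 of 110 were lower and 35 higher. The lower windows were not equally low, with summed run-on ratios of 0.242 in 3RHet, 0.172 in 2RHet and 0.0977 in 3LHet. Those of 3RHet had 222 and 80 total RNA reads in the replicate 1 pair, a ratio of 0.410 (0.314 to 0.532). Those of 2RHet had 69 and 20 reads, a ratio of 0.330 (0.190 to 0.549), against 0.119 (0.0863 to 0.161) in 3LHet. Of such windows with any read in that pair, 24 of 26 in 3RHet and 10 of 16 in 2RHet were lower, against 47 of 49 in 3LHet. The replicate 2 ratios were 0.765 in 3RHet and 0.596 in 2RHet, against 0.434 in 3LHet. In poly(A) RNA 3LHet had the highest ratio, 0.554 (0.427 to 0.717), against 0.477 (0.424 to 0.537) in 3RHet and 0.219 (0.105 to 0.423) in 2RHet. That rank rested on 1 bin, as without the bin from 311001 the ratio of 3LHet was 0.308 (0.223 to 0.421), below that of 3RHet. With 1 run-on library per group and adjacent windows not independent, these differences between scaffolds were not tested.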

How the data were processed

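Each deposited file covers the dm3 genome in 1-kb bins. Column 6 holds the authors' count of reads per bin. In the second library set (ES in the titles) a few bins are not whole, none of them on 3LHet, so in that set the deposited column was handled as an estimated count and rounded to whole reads. Column 5 holds the deposited RPKM, which equals the count per kb and per 1000000 reads; it was used only in the filter on bins, recomputed from the counts. Cutadapt and Bowtie 0.12.7 are named per the submitters' processing notes; read filters, strand and the rule for repeated sequence were not given in the sources used here, so how reads from repeats were placed is unknown. The file names of both sets carry different codes, which may stand for different mapping limits.

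Total RNA was tested with edgeR 4.0.16 (R 4.3.3) by its quasi-likelihood test with terms for genotype and library set (AC or ES), scaled to library totals, over all bins or windows of the genome, with Benjamini-Hochberg adjustment; SE is the log2 change divided by the root of F. Whole scaffolds were fitted with the windows. Libraries of a set deviate together from the group means (r = 0.587 over 27388 bins), so the set is the replicate block; with 2 libraries per group this says little more. Alternatives included TMM factors and DESeq2 1.42.0, and the test was tried on simulated data. Nothing in the labels says that the replicates came from separate flies, so p-values measure the spread between these libraries. Single pairs have no test and are given as ratios of RPM. Named windows were those called, with the highest control level, or with the highest or lowest ratio; others were picked after their values were seen, as were the run-on groups, stretches and sections. Members and lists were chosen with earlier results of these data known. No dm3 sequence or annotation was used here. The ChIP, input and small RNA samples were not analysed here.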

Additional observations from a re-analysis of the deposited data

How the results depend on the processing

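The direction of the whole scaffold in total RNA was not fixed. Against a log2 change of 0.054, edgeR gave -0.048 with TMM factors (adjusted p = 0.959), DESeq2 gave -0.13 (adjusted p = 0.969), and edgeR without the most abundant bin gave -0.76 (adjusted p = 0.509). With 1 library left out, and the lone library of a group assumed to vary like the others, the value ran from -1.15 to 1.19, and without the replicate block it was 0.14; none of these passed 0.05. In single pairs, the whole-scaffold ratio without the bin with most reads was 0.763 for replicate 1 and 0.716 in poly(A) RNA; for replicate 2 it was 0.460, which reversed the ratio of 1.16. The median log2 ratio of all windows with enough reads was 0.41 in the replicate 2 pair and 0.03, 0.07 and -0.01 in the replicate 1 pair, poly(A) RNA and run-on. Relative to that median the ratio of 3LHet was 0.867 in the replicate 2 pair, again reversed, and 0.814 in poly(A) RNA.

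Counts of windows at least 2-fold apart depended on the minimum of reads. With 50 reads in place of 20, 9 of 59 run-on windows were lower and 3 higher, against 50 and 14 of 119. The share of lower run-on windows thus fell too, and that of all sequences was computed only at 20 reads. In the replicate 1 pair 0 of 8 windows were lower and 1 higher, against 6 and 3 of 27. In the replicate 2 pair 16 of 27 were lower and 5 higher, against 21 and 18 of 51. In poly(A) RNA 0 of 13 were lower and 4 higher, against 1 and 6 of 24. Without a filter on low counts edgeR called 1 window of 3LHet lower, that from 2190001 to 2200000 (log2 change -1.66, adjusted p = 0.0107). In every other setting run, those without 1 library and without the replicate block included, edgeR and DESeq2 called 0 bins and 0 windows of 3LHet. Depth limits the windows with low run-on most, as their total RNA often rests on fewer than 10 reads per library.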
